A study of Mus musculus with 8 samples.

Results

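Cell cycle and proliferation genes of the lung were compared between control mice and the COPD mice model and between 2 diets. The set holds 35 genes chosen by name, of the 52636 genes counted, and all 35 were among the 20546 genes that were tested after the filter on low counts. By role, 23 of them act in mitosis and 12 act in S phase or at the G1/S transition. Lung tissue of male wild-type C57BL/6 mice was sequenced in 8 libraries, 2 for each of 4 groups. Control mice were given only PBS, and the COPD mice model (COPD mice below) was given porcine pancreatic elastase (PPE), which produces emphysema, followed by lipopolysaccharide (LPS), a bacterial endotoxin. In either case the feed was the control diet or one holding 2% of TJ-41, the herbal medicine hochuekkito. Feeding began at the age of 8 weeks, elastase or PBS followed at 10 weeks, and LPS at 100 µg per dose or PBS began at 12 weeks. The labels name no transgene or deletion in any group, and they do not say whether the 2 libraries of a group came from separate mice, so p-values measure the spread between libraries, which may be technical. The sources used here do not give the day or the hour at which the lungs were taken.

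Dividing cells copy their DNA in S phase and part the copies in mitosis. Before S phase, the MCM helicase is loaded on DNA (replication licensing), and the E2F transcription factors switch on the MCM genes and the genes of nucleotide supply. Genes of G2 and mitosis follow later under Foxm1, B-Myb and the MuvB complex, and their products are largely removed after each division, so that they mark cycling cells, while MCM proteins also persist in cells that have recently left the cycle. In the adult lung few cells divide at rest, and after injury epithelial, endothelial and immune cells re-enter the cycle.

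Promoters of the 2 classes are known for different short words, which many but not all of these genes held, and 5 examples are shown for that reason. RefSeq windows on GRCm38.p6, from 250 bases before to 50 bases after the start site, were found for 28 of the 35 genes. The 3 sequences of mitotic genes below show in capitals the letters TTTGAA of the cell cycle genes homology region (CHR), the element bound by MuvB complexes, and the letters CCAAT, each on either strand, the CCAAT word being the site of the factor NF-Y. The 2 sequences of MCM genes show in capitals CCAAT and the E2F words TTTCCCGC, TTTCGCGC, TTTGCCGC and TTTGGCGC on either strand, where a palindromic site makes 2 words overlap. All 5 stretches lie before the start site and are read in the direction of the gene.
Top2a (chr11:99024190-99024289, minus strand): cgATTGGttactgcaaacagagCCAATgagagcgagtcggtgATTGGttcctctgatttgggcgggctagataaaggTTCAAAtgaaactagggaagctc
Kif11 (chr19:37376282-37376381, plus strand): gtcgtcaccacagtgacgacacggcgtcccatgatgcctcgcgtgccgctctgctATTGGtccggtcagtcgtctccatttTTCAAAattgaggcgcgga
Cdk1 (chr10:69352939-69353038, minus strand): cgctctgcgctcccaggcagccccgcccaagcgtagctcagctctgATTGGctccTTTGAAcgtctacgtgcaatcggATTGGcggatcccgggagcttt
Mcm5 (chr8:75109349-75109508, plus strand): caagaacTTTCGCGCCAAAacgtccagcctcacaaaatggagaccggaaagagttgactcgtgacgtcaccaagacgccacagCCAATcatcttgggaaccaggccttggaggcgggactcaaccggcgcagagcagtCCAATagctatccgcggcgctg
Mcm6 (chr1:128359706-128359865, minus strand): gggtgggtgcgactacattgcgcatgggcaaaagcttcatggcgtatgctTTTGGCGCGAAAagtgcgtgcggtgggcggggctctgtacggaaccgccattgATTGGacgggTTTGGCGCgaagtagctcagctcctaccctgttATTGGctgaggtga
Of the 18 mitotic genes with a window, 13 held TTTGAA and 16 held CCAAT, where 20.2% and 41.1% of the 27025 genes with a window did. Of the 10 S phase and G1/S genes with a window, 7 held CCAAT, so that this word was common in both classes, and 1, Mcm2, held TTTGAA. The E2F words were found in 4 of these 10 (Mcm3, Mcm5, Mcm6 and Mcm7) and in 1 of the 18 mitotic genes, Cdk1, against 2.60% of all genes. A match is a description of letters and not of binding.

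Pcna and 3 of the MCM genes had the highest levels per length. On the scale of CPM (counts scaled to 1e+06 per library) per kilobase of exon, the mean level over the 8 libraries was highest for Mcm6 at 8.18, followed by Pcna, the sliding clamp of DNA polymerase, at 7.67, Mcm3 at 7.20 and Mcm4 at 6.17. The proliferation antigen Mki67 was at 4.37 CPM per kb, the highest of the mitotic genes, and above Mcm5 at 2.94, Mcm2 at 2.57 and Mcm7 at 2.05. Neighbours in this order did not separate beyond their spread, since Mcm6 ran from 7.30 to 9.19 CPM per kb over the libraries, Pcna from 6.84 to 9.96 and Mki67 from 2.57 to 7.65. The median was 2.75 CPM per kb for the 12 S phase and G1/S genes and 1.15 for the 23 mitotic genes, and the lowest levels were those of Cenpf at 0.414 and Ccnb1 (cyclin B1) at 0.212. Together the 35 genes took 0.0298% to 0.0460% of all counts of a library.

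Between 18767295 and 20888042 counts were deposited per library, and 3 counts correspond to 0.153 to 0.162 CPM. Replicate 2 of COPD mice on the control diet stood apart from the other libraries. The SD of the log2 differences between replicates was 0.675 in its group and 0.313 to 0.377 in the others, and its long genes were low relative to its short genes, with a difference of -0.39 on the log2 scale against -0.20 to 0.27 elsewhere. Some results that rest on it are given with and without it, and the others with it only. The markers of alveolar type II cells summed to between 19010 and 38940 CPM in every library. Since these are bulk samples, fewer dividing cells and less RNA per dividing cell cannot be told apart.

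The comparison of COPD mice with control mice asked how the cell cycle genes stood in the injured lung. Most mitotic genes lay lower in COPD mice, though none passed the test after adjustment, while the licensing genes lay at like levels in both. Summed over the 23 mitotic genes, the level was 201, 275, 192 and 161 CPM in the 4 control libraries and 156, 133, 137 and 134 CPM in the 4 libraries of COPD mice. Here and below, the 4 values are replicates 1 and 2 on the control diet followed by replicates 1 and 2 on the TJ-41 diet. The 2 sets of libraries did not overlap, although 161 and 156 CPM lie close together, and the sum was highest in control library 2 on the control diet. Summed over the 12 S phase and G1/S genes, the level was 184, 183, 166 and 149 CPM in control mice and 170, 186, 159 and 164 CPM in COPD mice. These sets overlapped.

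**Figure D1:**
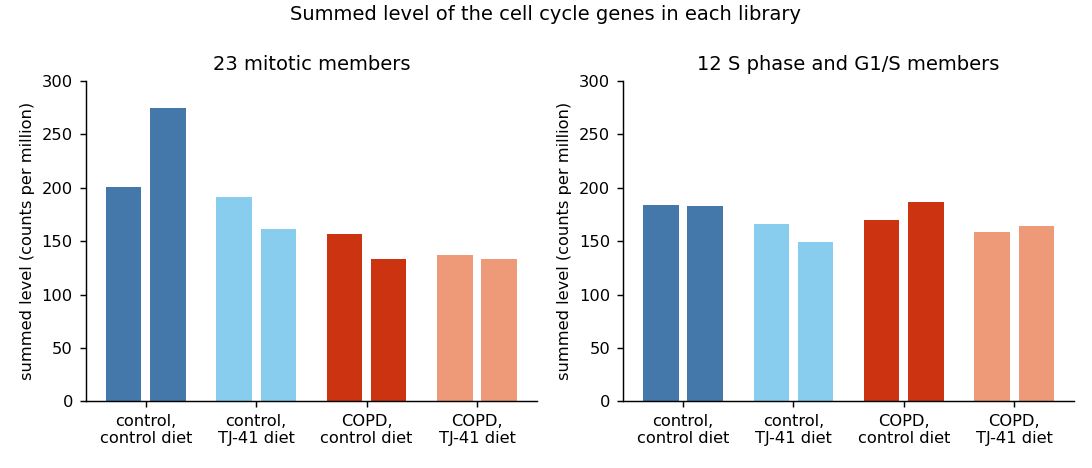
Summed level in CPM of the mitotic genes (left) and of the S phase and G1/S genes (right), with 1 bar for each library, the 2 bars of a group being its replicates. The 4 control libraries lie at 161 to 275 for the mitotic genes and the 4 libraries of COPD mice at 133 to 156, while the sums of the S phase and G1/S genes overlap at 149 to 186.

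In the fit across both diets, 28 of the 35 genes lay below 0 on the log2 scale, of which 21 were among the 23 mitotic genes, where 50.2% of all genes tested did. The median log2 fold change was -0.57 for the mitotic genes, -0.08 for the S phase and G1/S genes and -0.002 for all genes. No member passed the threshold of adjusted p under 0.05 with more than 1 on the log2 scale in edgeR's quasi-likelihood test, which 0.443% of all genes passed, and DESeq2 called 1 member and 1.21% of all genes. At an unadjusted p under 0.05, 12 of the 35 were lower and 0 higher, against 4.21% lower and 6.18% higher among all genes, and all 12 were mitotic. The count of 12 became 7 when either control library 2 on the control diet (2.39% of all genes) or control library 1 on the TJ-41 diet (3.18%) was left out, and it became 18 without COPD library 2 on the control diet (6.07%). Without COPD library 1 on the control diet 2 members were called, beside 4.08% of all genes, and without COPD library 2 on that diet 1 was, beside 1.01%. The libraries of the 2 conditions did not overlap for 8 members that were lower in COPD mice, beside 3.43% of all genes, and for 1 that was higher, Pcna, beside 3.35% of all genes.

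**Figure D2:**
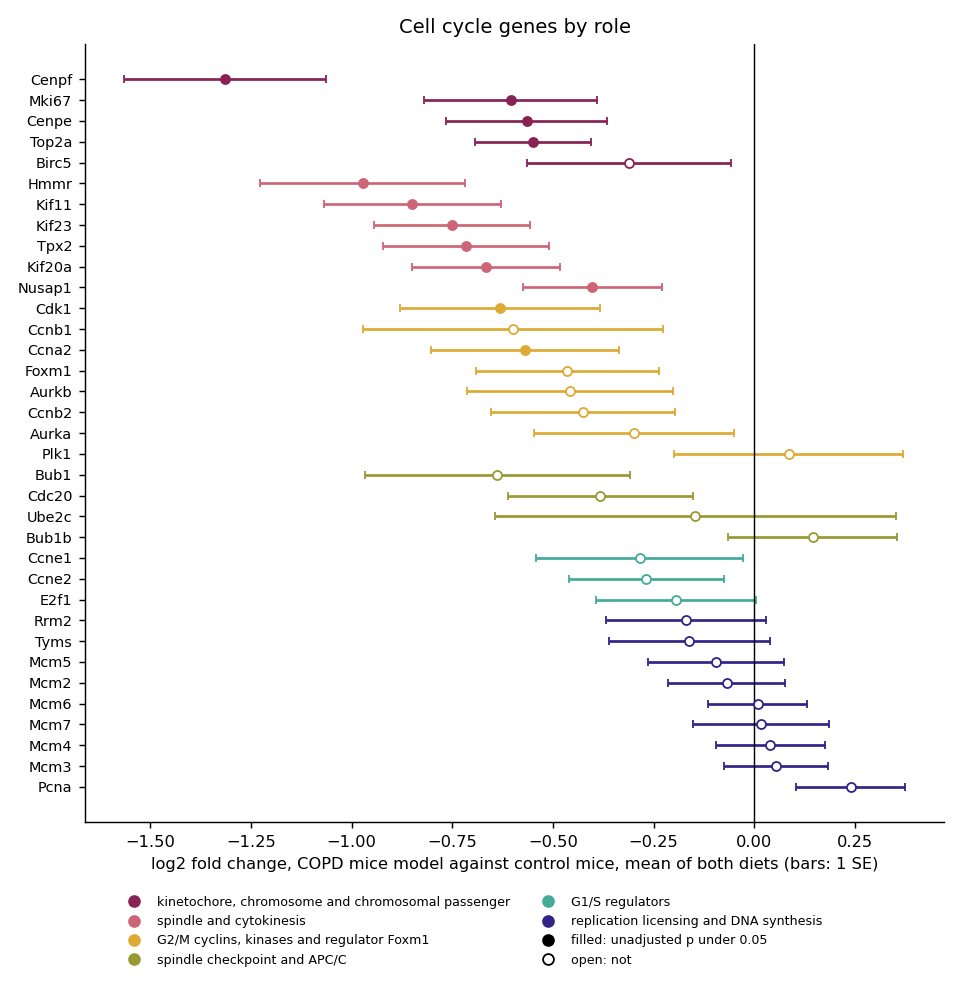
Log2 fold change of each of the 35 genes in COPD mice against control mice, mean of both diets, with 1 SE from edgeR's quasi-likelihood test as bars, coloured and grouped by role. Filled points have an unadjusted p under 0.05. All 11 genes of the kinetochore, chromosome, spindle and cytokinesis groups lie below 0, from -0.31 for Birc5 to -1.32 for Cenpf, and the 6 MCM genes lie between -0.10 and 0.05.

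The genes of the kinetochore and of chromosome structure were lower in all 5 cases, 4 of them at an unadjusted p under 0.05. Cenpf, a large protein of the outer kinetochore whose gene lies on the minus strand at chr1:189640606-189688086 of GRCm38, was at 7.38, 13.2, 7.17 and 8.70 CPM in control mice and 4.12, 2.51, 4.12 and 3.83 CPM in COPD mice. Every library of COPD mice lay below every control library, with a log2 fold change of -1.32 ± 0.25 (SE) and an adjusted p of 0.0692 in edgeR's quasi-likelihood test, the largest difference of the set. It was the 1 member called by DESeq2 (adjusted p = 2.6e-04), and edgeR called it with no filter beyond 1 count (adjusted p = 0.00572), after a correction for length and GC content that was added once the data had been seen (0.0315), with a crossed replicate block that was also added then (0.0395), and without replicate 1 (0.00356) or replicate 2 (0.0327) of COPD mice on the control diet. Over all alternatives its adjusted p ran from 2.6e-04 to 0.387, the latter without control library 2 on the TJ-41 diet. Cenpe, the kinetochore motor that carries chromosomes to the spindle equator, was at 6.75, 8.98, 7.27 and 6.0 CPM in control mice and 5.42, 3.90, 5.48 and 4.75 CPM in COPD mice. Its 2 sets did not overlap, with a log2 fold change of -0.57 ± 0.20 (SE) and an adjusted p of 0.355 in edgeR's quasi-likelihood test.

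Mki67, which coats mitotic chromosomes and is the usual histological mark of dividing cells, was at 46.8, 77.0, 51.4 and 38.0 CPM in control mice and 44.2, 25.9, 34.1 and 34.2 CPM in COPD mice. The value of 44.2 CPM in COPD mice lay above that of 38.0 CPM in control mice, so the sets overlapped, with a log2 fold change of -0.60 ± 0.21 (SE) and an adjusted p of 0.358 in edgeR's quasi-likelihood test. Top2a, the topoisomerase that untangles sister chromatids, was at 25.4, 36.1, 22.9 and 22.8 CPM in control mice and 20.8, 19.3, 15.9 and 16.9 CPM in COPD mice. Its sets were apart by a small gap, with a log2 fold change of -0.55 ± 0.14 (SE) and an adjusted p of 0.188 in edgeR's quasi-likelihood test. Birc5 (survivin), a subunit of the chromosomal passenger complex, ran from 3.03 to 4.97 CPM in control mice and from 2.40 to 4.87 CPM in COPD mice, and its log2 fold change was -0.31 ± 0.25, where ± gives the SE here and below.

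Genes of the spindle and of cytokinesis lay lower in all 6 cases, each at an unadjusted p under 0.05, and 5 did not overlap. Kif11 (Eg5), the motor that pushes the spindle poles apart, was at 7.11, 11.3, 8.55 and 7.19 CPM in control mice and 5.27, 3.59, 4.70 and 5.37 CPM in COPD mice. This gave a log2 fold change of -0.85 ± 0.22 (SE) and an adjusted p of 0.181 in edgeR's quasi-likelihood test. Kif23, a motor of the central spindle that is needed to divide the cytoplasm, was at 15.3, 19.3, 15.6 and 13.4 CPM in control mice and 12.2, 7.23, 9.13 and 9.10 CPM in COPD mice. Its lowest control value of 13.4 CPM lay above the highest value of COPD mice, 12.2 CPM, with a log2 fold change of -0.75 ± 0.19 (SE) and an adjusted p of 0.180 in edgeR's quasi-likelihood test. Kif20a, a motor that works with Kif23 late in mitosis, was at 6.49, 7.17, 5.63 and 5.14 CPM in control mice and 3.65, 3.08, 3.86 and 4.81 CPM in COPD mice. It gave a log2 fold change of -0.67 ± 0.18 (SE) and an adjusted p of 0.214 in edgeR's quasi-likelihood test, but 25.2% of its 50-base words are shared with the overlapping gene Cdc23, and whether counting used the strand is not given in the sources used here.

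Tpx2, which activates Aurora A on the spindle, was at 6.33, 8.62, 6.61 and 5.08 CPM in control mice and 4.33, 4.77, 3.03 and 4.09 CPM in COPD mice. The sets did not overlap, with a log2 fold change of -0.72 ± 0.21 (SE) and an adjusted p of 0.240 in edgeR's quasi-likelihood test. Hmmr, a microtubule-associated protein of the spindle poles, was at 3.45, 6.28, 3.94 and 2.87 CPM in control mice and 2.29, 2.46, 1.72 and 1.89 CPM in COPD mice. It had the second largest difference, with a log2 fold change of -0.97 ± 0.25 (SE) and an adjusted p of 0.188 in edgeR's quasi-likelihood test. Nusap1, which bundles spindle microtubules, was at 8.89, 8.52, 7.22 and 7.14 CPM in control mice and 6.52, 8.61, 5.06 and 4.40 CPM in COPD mice. Its sets overlapped through COPD library 2 on the control diet. The test gave a log2 fold change of -0.40 ± 0.17 (SE) and an adjusted p of 0.468 in edgeR's quasi-likelihood test.

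**Figure D3:**
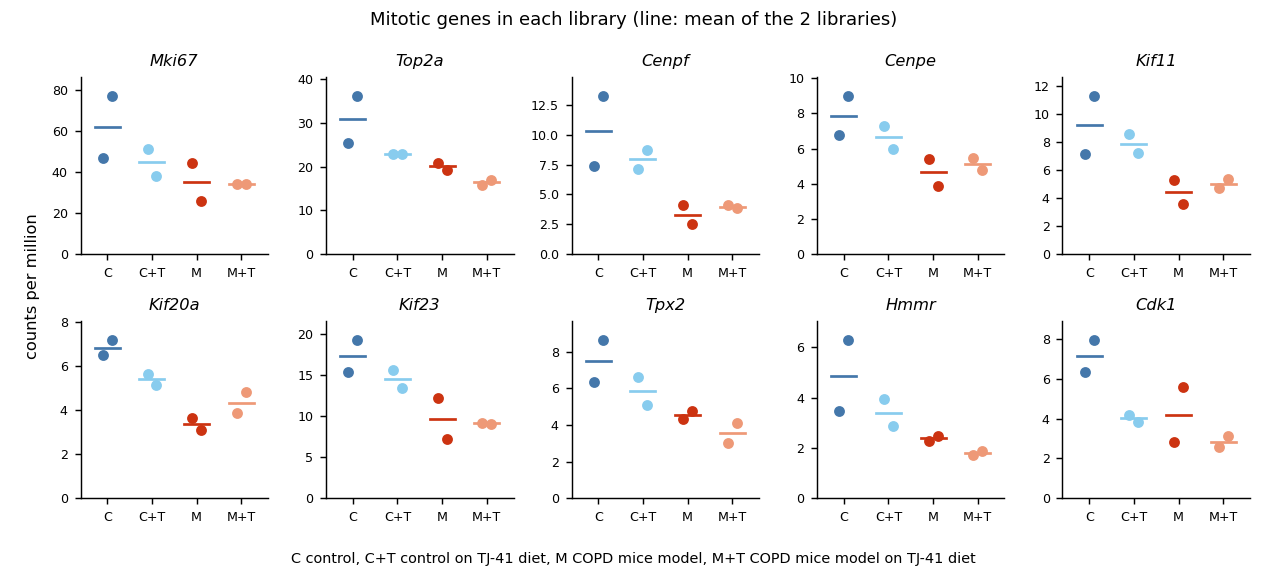
Level in CPM of 10 mitotic genes in each of the 8 libraries, with a line at the mean of the 2 libraries of a group. In 8 of the panels, all but Mki67 and Cdk1, the 4 points of COPD mice (M and M+T) lie below the 4 control points (C and C+T).

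The kinases and cyclins that drive entry into mitosis varied more. Cdk1, the mitotic kinase, was at 6.33, 7.94, 4.20 and 3.84 CPM in control mice and 2.82, 5.59, 2.56 and 3.12 CPM in COPD mice. Replicate 2 of COPD mice on the control diet, at 5.59 CPM, lay above both control libraries on the TJ-41 diet, with a log2 fold change of -0.63 ± 0.25 (SE) and an adjusted p of 0.419 in edgeR's quasi-likelihood test. Without that library the log2 fold change was -0.91. Ccna2 (cyclin A2), which partners Cdk1 and Cdk2, was at 7.01, 11.2, 7.02 and 5.51 CPM in control mice and 4.75, 7.49, 3.91 and 4.55 CPM in COPD mice. The sets overlapped in the same way, with a log2 fold change of -0.57 ± 0.23 (SE) and an adjusted p of 0.444 in edgeR's quasi-likelihood test, and 11.4% of its 50-base words are shared with other genes. Without COPD library 2 on the control diet the log2 fold change was -0.75. Ccnb1 and Ccnb2, the B-type cyclins that activate Cdk1, did not reach an unadjusted p of 0.05. Ccnb1 was at 0.942, 1.40, 1.33 and 0.649 CPM in control mice and 0.469, 0.923, 0.783 and 0.665 CPM in COPD mice. At these levels a library held only 9 to 27 counts, 23.4% of its words are shared with other genes, and the log2 fold change was -0.60 ± 0.37. Ccnb2 was at 4.66, 4.98, 3.28 and 2.38 CPM in control mice and 2.61, 3.49, 2.92 and 2.04 CPM in COPD mice. Its log2 fold change was -0.42 ± 0.23.

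Foxm1, the transcription factor of the G2/M programme, was at 8.21, 12.1, 6.04 and 5.24 CPM in control mice and 5.32, 5.23, 7.25 and 4.14 CPM in COPD mice. Its level was lower in 3 of the groups than in control mice on the control diet, and the log2 fold change over both diets was -0.46 ± 0.23. The Aurora kinases, which govern centrosomes and chromosome attachment, had log2 fold changes of -0.30 ± 0.25 for Aurka and -0.46 ± 0.26 for Aurkb. Plk1, the Polo kinase, was the only member of this group above 0, at 0.09 ± 0.28, and 10.4% of its words are shared. None of these 4 reached an unadjusted p of 0.05. Among the genes of the spindle checkpoint and of the anaphase-promoting complex, the log2 fold change was -0.64 ± 0.33 for the checkpoint kinase Bub1, 0.15 ± 0.21 for Bub1b, -0.38 ± 0.23 for the activator Cdc20, which shares 10.6% of its words, and -0.15 ± 0.50 for the ubiquitin-conjugating enzyme Ube2c. None of them reached an unadjusted p of 0.05, and Ube2c, which shares 16.0% of its words, mostly with Tnnc2, ran from 0.595 to 2.35 CPM in control mice and from 0.626 to 3.33 CPM in COPD mice.

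The licensing genes were interleaved between the conditions. Mcm2 was at 21.8, 20.9, 16.4 and 14.4 CPM in control mice and 15.4, 20.8, 16.3 and 16.8 CPM in COPD mice. Mcm3 was at 28.1, 30.0, 27.2 and 20.9 CPM in control mice and 29.1, 27.9, 25.4 and 27.5 CPM in COPD mice. Mcm4 was at 23.0, 24.4, 19.4 and 20.6 CPM in control mice and 20.6, 27.0, 22.0 and 20.1 CPM in COPD mice. In all 3 the libraries of the 2 conditions were interleaved, and the highest Mcm4 value was that of the library that stood apart. Mcm5 was at 13.9, 13.4, 12.9 and 8.49 CPM in control mice and 10.6, 11.6, 11.3 and 11.6 CPM in COPD mice. Mcm6 was at 42.9, 38.5, 36.9 and 34.1 CPM in control mice and 42.6, 34.9, 35.7 and 39.7 CPM in COPD mice. Mcm7 was at 8.89, 9.09, 9.63 and 8.38 CPM in control mice and 8.03, 11.1, 9.08 and 8.23 CPM in COPD mice. These too were interleaved. On the control diet alone, both libraries of COPD mice lay below both control libraries for Mcm2 and Mcm5, as they did for 14.1% of all genes. The products of these 6 genes form the ring of the replicative helicase, and their log2 fold changes were -0.07 ± 0.14 for Mcm2, 0.05 ± 0.13 for Mcm3, 0.04 ± 0.14 for Mcm4, -0.10 ± 0.17 for Mcm5, 0.01 ± 0.12 for Mcm6 and 0.02 ± 0.17 for Mcm7. The 95% interval for Mcm6 was -0.27 to 0.28 and that for Mcm5 -0.48 to 0.29, with -0.48 the lowest bound of the 6. A decrease of the size seen in Cenpf, the largest of the set, lay outside all 6 intervals. Smaller decreases, such as that of Nusap1, lay within the interval for Mcm5. For Mcm7, 23.3% of the words are shared with Gm5487, Ap4m1 and Mir93.

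Pcna was at 17.2, 16.4, 16.9 and 16.9 CPM in control mice and 18.9, 23.9, 17.4 and 19.6 CPM in COPD mice. It was the only member whose libraries lay wholly higher in COPD mice, by 0.24 ± 0.14 on the log2 scale, and edgeR's quasi-likelihood test gave an adjusted p of 0.582, with 19.1% of its 50-base words shared with the pseudogene Pcna-ps2. Without COPD library 2 on the control diet the difference was 0.16. Rrm2, the small subunit of ribonucleotide reductase, was at 6.91, 7.53, 5.07 and 4.38 CPM in control mice and 5.06, 7.13, 5.06 and 3.78 CPM in COPD mice. With Tyms, the thymidylate synthase, it supplies nucleotides, and their log2 fold changes were -0.17 ± 0.20 and -0.16 ± 0.20. E2f1, the activator of the S phase programme, was at 9.57, 11.6, 10.3 and 9.19 CPM in control mice and 7.09, 12.1, 8.14 and 8.28 CPM in COPD mice. Its difference was -0.20 ± 0.20, and -0.41 without COPD library 2 on the control diet. Those of the E-type cyclins, which start S phase, were -0.28 ± 0.26 for Ccne1 and -0.27 ± 0.19 for Ccne2, which shares 14.4% of its words with Ints8. The conditions overlapped in all 5 of these genes.

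**Figure D4:**
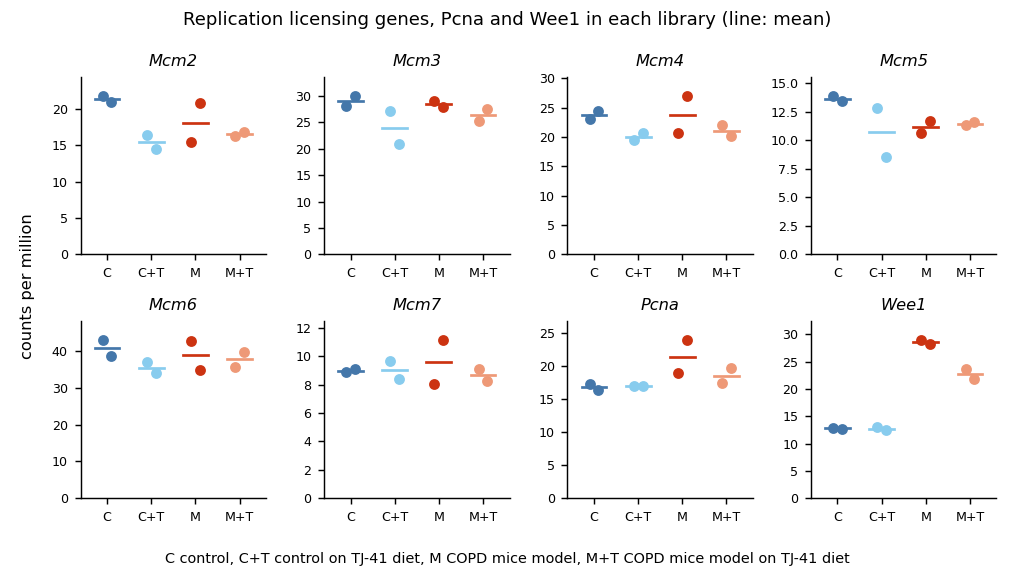
Level in CPM of the 6 MCM genes, Pcna and the kinase gene Wee1 in each of the 8 libraries, with a line at the mean of the 2 libraries of a group. The MCM points of COPD mice (M and M+T) overlap the control points (C and C+T). Points of COPD mice reach outside the control range for Mcm4 (20.1 to 27.0 against 19.4 to 24.4) and Mcm7 (8.03 to 11.1 against 8.38 to 9.63). For Wee1 the control libraries lie at 12.4 to 13.1 and the libraries of COPD mice at 21.9 to 28.9.

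Some other measures moved with these values. In control library 2 on the control diet, 17 of the 23 mitotic genes had their highest level, against 8.99% of all genes, and without this library the median of the mitotic genes was -0.41 in place of -0.57. Without COPD library 2 on the control diet it was -0.57, and with the correction for length and GC content it was -0.53, so the difference was as large without the library that stood apart. The 8 B cell markers lay lower in COPD mice in 8 of 8 cases, 2 at an unadjusted p under 0.05 and 0 called by edgeR, and their sum was 341 to 363 CPM in control mice and 179 to 367 CPM in COPD mice. The germinal centre B cell markers, of which 7 were tested, were higher in 4 and lower in 3, with sums of 178 to 188 and 167 to 190 CPM. Plasma cell markers were higher in 10 of 12, 3 of them called, with sums of 959 to 1527 CPM and 2431 to 4451 CPM. Endothelial markers were lower in 7 of 8, none called, with 3493 to 4108 and 3183 to 3595 CPM. Of 10 neutrophil markers tested, 4 were higher and 6 lower with a median of -0.08 and none called, and their sum of 278 to 425 CPM in control mice and 437 to 989 CPM in COPD mice moved with Lcn2, at 92.5 to 140 and 194 to 890 CPM, a gene that lung epithelium also makes. The 5 markers of bone marrow granulocyte precursors summed to at most 0.869 CPM in any library, and those of thymus to 18.2 to 28.5 CPM. The part of these cell types in the cell cycle genes was not tested.

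Within each diet the mitotic genes were mostly lower in COPD mice. The comparison over both diets is the mean of these 2 and uses the same libraries, so it is not independent of them. The 2 comparisons within a diet share no library with each other, only the normalization and the estimate of spread. On the control diet, 30 of the 35 genes lay below 0, against 49.0% of all genes, with a median of -0.72 for the mitotic and -0.08 for the S phase and G1/S genes. No member was called by edgeR (0.122% of all genes), 1 was by DESeq2 (0.847%), and 10 were lower at an unadjusted p under 0.05 (3.02% of all genes). On the TJ-41 diet, 27 lay below 0, against 50.2%, with medians of -0.39 and 0.01. No member was called by edgeR (0.0779% of all genes) or DESeq2, and 6 were lower at an unadjusted p under 0.05 (3.01% of all genes). In both diets alike, 20 of the 23 mitotic genes lay below 0 and 4 of the 12 S phase and G1/S genes did, where 30.3% of all genes did. On the control diet 18 members did not overlap and were lower, beside 14.1% of all genes, and on the TJ-41 diet 18, beside 27.9%.

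The difference between the diets was then read for single members. Cenpf differed by -1.64 ± 0.36 on the control diet and by -0.995 ± 0.35 on the TJ-41 diet. Hmmr differed by -1.03 ± 0.36 and -0.91 ± 0.37, and Tpx2 by -0.72 ± 0.29 and -0.72 ± 0.29. Together with Top2a and Kif23, these 3 were the members at an unadjusted p under 0.05 in each diet. The widest contrasts were those of Foxm1, with -0.94 ± 0.32 and 0.01 ± 0.32, and of Bub1b, with -0.30 ± 0.30 and 0.59 ± 0.30. The test of the difference itself gave an unadjusted p of 0.0661 for Foxm1 and 0.0647 for Bub1b in edgeR's quasi-likelihood test, the lowest of the set. No member reached 0.05 in either direction, where 3.27% of all genes did, and edgeR called no gene at all, while DESeq2 called 17 genes, none of them a member. The median of the mitotic genes without control library 1 on the TJ-41 diet was -0.22 on that diet. On the control diet, 7 members were called without replicate 1 of COPD mice, where the group is the library that stood apart and 6.28% of all genes were called, and 0 without replicate 2 (0.659%). The count at an unadjusted p under 0.05 was 2 without replicate 2 of control mice (1.42% of all genes) and 18 without replicate 2 of COPD mice (8.16%). On the TJ-41 diet that count was 0 and 1 without replicates 1 and 2 of COPD mice and 1 and 2 without replicates 1 and 2 of control mice, beside 1.01% to 2.77% of all genes.

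**Figure D5:**
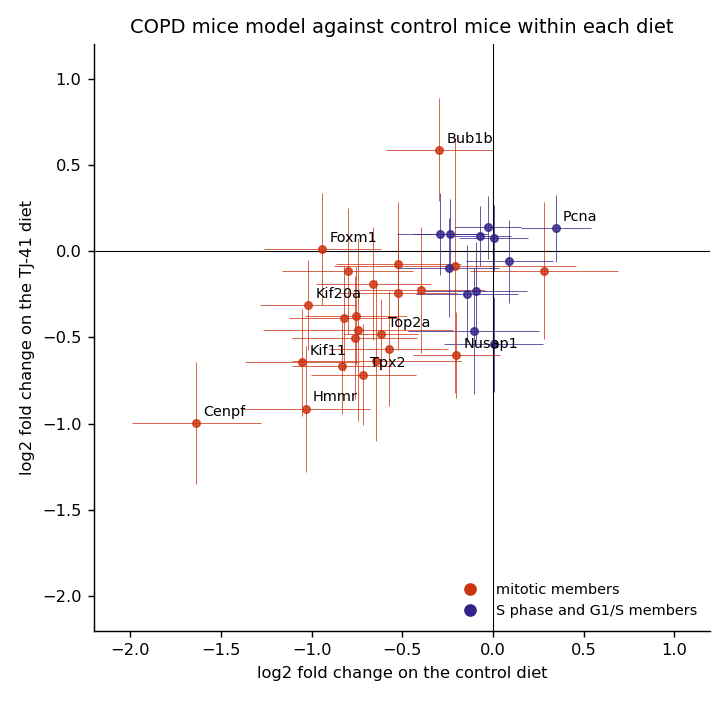
Log2 fold change of each gene in COPD mice against control mice on the control diet (horizontal) and on the TJ-41 diet (vertical), with 1 SE as bars, for the 23 mitotic genes (red) and the 12 S phase and G1/S genes (blue). Of the mitotic genes, 20 lie below 0 on both axes, with Cenpf farthest, at -1.64 and -0.995, and the S phase and G1/S genes lie around 0.

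The TJ-41 diet was compared with the control diet to ask whether it altered the same genes. In control mice, 30 of the 35 lay lower on the TJ-41 diet, against 50.3% of all genes, with a median log2 fold change of -0.43 for the mitotic and -0.16 for the S phase and G1/S genes. No member was called by edgeR or DESeq2 (0% of all genes in edgeR), and 4 were lower at an unadjusted p under 0.05 (0.535% of all genes). These were Foxm1 at -0.84 ± 0.32, Cdk1 at -0.83 ± 0.35, Ccnb2 at -0.77 ± 0.32 and Mcm2 at -0.47 ± 0.20. For all 4, both libraries on the TJ-41 diet lay below both on the control diet, as they did for 17 members and for 19.1% of all genes. The smallest adjusted p of the set was 0.996 in edgeR's quasi-likelihood test. Without replicate 2 of control mice on either diet, no member was lower at an unadjusted p under 0.05, and the mitotic median was -0.16 without that of the control diet. Without either COPD library on the control diet the mitotic median was -0.44. These libraries enter only through the filter, the normalization and the shared spread. The count of 4 moved both down and up when 1 library was left out.

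In COPD mice few members lay apart between the diets. The median was -0.09 for the mitotic (-0.25 without COPD library 1 on the control diet, -0.05 without COPD library 2) and -0.16 for the S phase and G1/S genes, and 24 members lay lower on the TJ-41 diet against 52.4% of all genes. No member was called by edgeR or DESeq2 (0.00487% of all genes in edgeR), and 1 was lower at an unadjusted p under 0.05 (2.10% of all genes), Nusap1 at -0.68 ± 0.25. For 9 members both libraries on the TJ-41 diet lay lower, beside 14.9% of all genes. Without COPD library 1 on the control diet, 7 members were lower at that level and 1 was called, beside 13.5% and 3.41% of all genes. The count of 1 moved up without COPD library 2 on the control diet and down without either COPD library on the TJ-41 diet. Over both conditions together, 32 members lay lower on the TJ-41 diet, against 50.2% of all genes, and 7 were lower at an unadjusted p under 0.05 (1.44% of all genes). Only Mcm3 lay lower in all 4 libraries on the TJ-41 diet, beside 0.730% of all genes. The 7 were Cdk1 at -0.70 ± 0.25, Aurka at -0.57 ± 0.25, Rrm2 at -0.54 ± 0.20, Ccna2 at -0.54 ± 0.23, Ccnb2 at -0.53 ± 0.23, Nusap1 at -0.48 ± 0.17 and Top2a at -0.36 ± 0.14. Aurka itself was at 3.56, 4.15, 2.46 and 2.00 CPM in control mice and 1.98, 3.38, 1.83 and 2.40 CPM in COPD mice. The libraries of the 2 diets overlapped in all of these, no member was called, and the smallest adjusted p among the 35 was 0.973 in edgeR's quasi-likelihood test. The count of 7 moved both down and up when 1 library was left out. The median of the mitotic genes in this comparison then ran from -0.41 without control library 1 on the control diet to -0.17 without control library 2 on that diet. Since the diet comparisons use the same libraries as those of COPD mice, the 2 kinds of result are not independent.

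Other cell cycle genes, 113 of them in 4 lists, were read beside the 35, and 112 were tested. Of 48 other genes of G2 and mitosis, 42 lay lower in COPD mice over both diets, with a median of -0.37, 11 at an unadjusted p under 0.05 and 0 called by edgeR. Pbk, a mitotic kinase, had the lowest value at -1.31 ± 0.42 and Cks1b, a Cdk-binding subunit, the highest at 0.36 ± 0.30. Aspm, a spindle pole protein, at -1.17 ± 0.25, and Prc1, which bundles the central spindle, at -0.89 ± 0.18, were named after their values were seen. Of 34 other genes of DNA replication, 17 lay higher and 17 lower, with a median of -0.003 and 1 in each direction at an unadjusted p under 0.05. These were Cdc6, the loader of the MCM ring, at 0.54 ± 0.23, and Dtl, which marks Cdt1 for destruction, at -0.54 ± 0.22. In 21 genes of G1 cyclins, their kinases, E2F and pocket proteins the median was -0.13, from -0.42 ± 0.35 for E2f8 to 0.27 ± 0.16 for Cdk4.

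Ccnd1 (cyclin D1), which links growth signals to the cycle, was at 159, 181, 160 and 152 CPM in control mice and 129, 138, 130 and 126.5 CPM in COPD mice. The sets did not overlap, with a log2 fold change of -0.31 ± 0.11 (SE) and an adjusted p of 0.348 in edgeR's quasi-likelihood test. Myc was at 10.2, 10.3, 8.81 and 9.08 CPM in control mice and 8.66, 12.7, 9.91 and 7.31 CPM in COPD mice, with a log2 fold change of 0.00 ± 0.19. Cdkn1a (p21), the inhibitor induced by p53, was at 54.6, 56.3, 39.1 and 60.7 CPM in control mice and 32.3, 81.8, 44.4 and 50.1 CPM in COPD mice. It differed by -0.02 ± 0.26, and its widest values were the 2 libraries of COPD mice on the control diet. The difference was 0.24 without replicate 1 of that group and -0.42 without replicate 2. Of 14 p53 targets and growth arrest genes, 12 lay higher, with a median of 0.23, 2 at an unadjusted p under 0.05 and 0 called, from -0.10 ± 0.11 for Mdm2 to 0.73 ± 0.18 for Eda2r.

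Wee1, the kinase that holds Cdk1 inactive until the cell is ready for mitosis, had the lowest adjusted p of the cell cycle genes examined. It was at 12.9, 12.7, 13.1 and 12.4 CPM in control mice and 28.9, 28.2, 23.7 and 21.9 CPM in COPD mice. The 4 control libraries were nearly alike, and all 4 libraries of COPD mice lay above them, with a log2 fold change of 0.997 ± 0.12 (SE) and an adjusted p of 0.00997 in edgeR's quasi-likelihood test. This passed the adjusted p but fell just short of the log2 fold change of 1, so the gene was not called in edgeR's quasi-likelihood test, although it was without COPD library 2 on the control diet (1.01, adjusted p = 9.4e-04) and without COPD library 2 on the TJ-41 diet (1.03, adjusted p = 0.036). Its adjusted p over the alternatives ran from 9.2e-08 with DESeq2 to 0.116 without control library 2 on the TJ-41 diet. Within the diets the log2 fold change was 1.16 ± 0.17 and 0.84 ± 0.17, called in neither by edgeR with all libraries and the filter on low counts. On the control diet it was called by DESeq2 (adjusted p = 6.4e-05) and by edgeR without either COPD library of that diet, with no filter beyond 1 count and with the length and GC correction. The difference between the diets gave an unadjusted p of 0.22 in edgeR's quasi-likelihood test. On the TJ-41 diet both libraries of COPD mice lay below those on the control diet, by -0.33 ± 0.17 on the log2 scale. In the list of CDK inhibitors and WEE kinases, 6 of 9 tested genes lay higher and 3 lower, down to -0.96 ± 0.35 for Cdkn3, a phosphatase of Cdk1 and Cdk2.

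Wee1 is also known as a gene driven by the circadian clock. Of 18 clock genes, 14 lay higher and 4 lower in COPD mice over both diets, all 18 at an unadjusted p under 0.05, and 9 were called higher and 3 lower. They ran from -2.93 ± 0.26 for Arntl (Bmal1), the activator of the clock, to 3.89 ± 0.14 for its output Dbp. The hour at which the lungs of each group were taken is not given in the sources used here, so a difference in sampling hour and a difference in COPD mice cannot be told apart in these genes. The part of the clock genes in the values of Wee1 and of the mitotic genes was not tested.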

How the data were processed

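RNA-seq of mouse lung gave 1 table of 8 libraries. The values deposited by the authors are raw counts of reads per gene for 52636 genes, with no normalization. The submitters' processing notes name HISAT2, edgeR and the mm10 build, and the study's methods name CLC Genomics Workbench and edgeR; the counting tool, gene annotation, strand setting and treatment of reads with several matches are not given in the sources used here. Members that share over 10% of their 50-base words with other genes are therefore marked with that share.

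Genes passing filterByExpr (minimum count 10, minimum total 15) were kept, 20546 in all. Library sizes were scaled by TMM, and edgeR 4.0.16 in R 4.3.3 fitted all 4 groups with its quasi-likelihood test and Benjamini-Hochberg adjustment over all genes tested. A gene was called at an adjusted p under 0.05 and a log2 fold change beyond 1. Levels are CPM with TMM scaling, errors are SE unless given as SD, and 3 counts were taken as the floor, for counting error only. Total counts were 18767295 to 20888042 per library. Alternatives were DESeq2 1.42.0, RLE scaling, library size alone, no filter beyond 1 count, only the groups compared, the replicate number as a block and leaving out each library. The fit was tested on simulated data with 200 changed genes.

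The members, the other gene lists and the tests were chosen with earlier results of these data known. All 35 members could be named; of the other lists, Wee1, Cdkn1a, Ccnd1 and Myc, genes called in any comparison, and the highest and lowest log2 fold change of each list in the comparison over both diets. Exonic length, coordinates and shared 50-base words came from GENCODE M21 on GRCm38, which held 52489 of the 52636 identifiers, and promoters from RefSeq on GRCm38.p6.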

Additional observations from a re-analysis of the deposited data

How the results depend on the processing

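With all libraries and the filter on low counts, edgeR called no member in any comparison, so no called direction of a member could be reversed. Cenpf was the only member called over both diets in 4 alternatives (1 member each, against 0). These were DESeq2 (1.21% of all genes called), all genes of at least 1 count (0.784%), the length and GC correction (0.428%) and the crossed block (0.555%). On the control diet 1 member was called with DESeq2 (0.847%) and with all genes (0.414%). The length and GC correction and the crossed block were chosen after seeing the data. For COPD mice on the TJ-41 diet, members lower at an unadjusted p under 0.05 numbered 11 with only the groups compared, in place of 6. The share of all genes was then 11.9% in place of 3.01%. For the diets in control mice they numbered 4 (0.535% of all genes). This became 2 with DESeq2 (0.385%), 10 with only the groups compared (3.04%) and 9 with the length and GC correction (0.72%). For the diets in COPD mice 0 (1.14%) took the place of 1 (2.1%) with only the groups compared. Over both conditions the diets gave 4 (1.23%) with library size alone, in place of 7 (1.44%).

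With the replicate number as a block, members lower at that p numbered 11 on the control diet (2.64% of all genes) and 4 on the TJ-41 diet (2.45%). They numbered 11 for COPD mice over both diets (3.7%). For the diets they numbered 3 in control mice (0.389%), 1 in COPD mice (1.88%) and 4 over both conditions (1.17%). The pairing rests on the number alone, since deviations of libraries with the same number correlated at -0.248 to 0.140; the block changed no call of a member.

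Leaving out 1 library at a time gave these lowest and highest values. On the control diet, 0 to 7 members were called, 2 to 18 were lower at an unadjusted p under 0.05, and the medians were -0.63 to -0.29 for all members and -0.92 to -0.48 for the mitotic genes. On the TJ-41 diet the count was 0 to 9, and the medians -0.40 to -0.12, -0.51 to -0.22 and, for the S phase and G1/S genes, -0.16 to 0.0476. Over both diets, 0 to 2 were called and 7 to 18 were lower, with a mitotic median of -0.66 to -0.41. For the diets in control mice the medians were -0.49 to -0.21, -0.67 to -0.16 and -0.24 to -0.0692. For the diets in COPD mice 0 to 1 were called, 0 to 7 were lower, and the medians were -0.33 to -0.0516, -0.25 to -0.0516 and -0.34 to -0.0835. For the diets over both conditions 0 to 1 were called and 0 to 12 were lower. For the difference between the diets the medians were 0.0497 to 0.34, 0.10 to 0.52 and -0.0887 to 0.13. The causes were not tested.

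Counts of all genes called also moved. They were 91 over both diets against 249 with DESeq2 and 278 with all genes, 25 on the control diet against 174 and 147, and 16 on the TJ-41 diet against 125 and 89, and 248 with only the groups compared; for the difference between the diets they were 0 against 17 and 6. Leaving out 1 library moved them from 15 to 873 over both diets, from 3 to 1343 on the control diet, from 2 to 168 on the TJ-41 diet, from 0 to 728 for the diets in COPD mice, from 0 to 228 for the diets over both conditions and from 0 to 14 for the difference. The highest count was without COPD library 1 on the control diet in each of these but the TJ-41 diet. The fits rest on 2 libraries per group and 4 residual degrees of freedom.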
